A study of Homo sapiens with 12 samples.

Results

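The androgen receptor is a ligand-activated transcription factor, and the genes described here encode 8 proteins that help to set where it binds and what it does there: the pioneer factors FOXA1, GATA2 and GRHL2, the lineage factors HOXB13 and SPDEF, the coactivator NCOA2, and the corepressors TLE3 and NCOR1. They were taken as every probe of the array that the HumanHT-12 V4 annotation lists under one of these symbols. 7 of the 8 genes had a probe, with 1 probe each among 47323, and all 7 probes passed the detection filter described below. NCOR1 had no probe listed under its symbol and was not analysed here, and neither was the receptor gene itself.

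RNA was measured on 12 Illumina HumanHT-12 V4 bead arrays in LNCaP, a line grown from a lymph node metastasis of a human prostate carcinoma, whose receptor carries a change that widens its choice of ligands. All cells were first held in medium free of steroids and phenol red for 48 h and then treated for 48 h. There were 3 arrays in each of 4 groups: the solvents ethanol and DMSO (vehicle), 10 nM R1881, 100 nM Torin 1, and 10 nM R1881 with 100 nM Torin 1. R1881 is a synthetic androgen that cells degrade poorly, and Torin 1 blocks the kinase mTOR in both of its complexes. The title of the series puts the question as how mTOR in the nucleus joins androgen signalling to transcription, and the arrays address it through the R1881 response with and without mTOR inhibition. The vehicle cells had neither androgen nor inhibitor, so they stand for androgen deprivation rather than for growth in full serum, and 1 cell line was studied.

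Pioneer factors bind their DNA sites in closed chromatin and make the neighbouring DNA accessible. In prostate cells FOXA1, a forkhead protein, and GATA2, a zinc finger protein, open enhancers at which the androgen receptor then binds, and GATA2 is also known to sustain transcription of the receptor gene. GRHL2, a grainyhead protein, keeps epithelial enhancers open. HOXB13, a posterior homeobox protein, marks the prostate lineage and shares many sites with FOXA1 and the receptor. SPDEF is an ETS family protein of secretory luminal cells. NCOA2 is a steroid receptor coactivator that binds the ligand-bound receptor and brings in histone acetyltransferases, whereas TLE3, of the Groucho family, and NCOR1 are corepressors that bind DNA-bound proteins and bring in histone deacetylases.

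The promoters of 3 members are shown because they are the regions that set the start of the RNAs described below: SPDEF had the highest rise with R1881 among the members, GATA2 the deepest fall, and FOXA1 is the forkhead gene. The sequences are those of RefSeq on GRCh38.p14, from 250 bases before to 50 bases after the first base of the transcript, written 5′ to 3′ on the strand of the gene, which is the minus strand for all 3. The first transcribed base and any motif match are in capitals.
SPDEF, chr6:34556280-34556579: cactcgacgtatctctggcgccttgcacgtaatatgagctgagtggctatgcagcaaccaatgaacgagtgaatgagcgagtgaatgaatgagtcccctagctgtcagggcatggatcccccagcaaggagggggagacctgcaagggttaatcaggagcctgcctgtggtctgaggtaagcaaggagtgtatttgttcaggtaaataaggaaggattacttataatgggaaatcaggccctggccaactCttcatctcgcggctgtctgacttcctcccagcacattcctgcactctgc
GATA2, upstream start, chr3:128493152-128493451: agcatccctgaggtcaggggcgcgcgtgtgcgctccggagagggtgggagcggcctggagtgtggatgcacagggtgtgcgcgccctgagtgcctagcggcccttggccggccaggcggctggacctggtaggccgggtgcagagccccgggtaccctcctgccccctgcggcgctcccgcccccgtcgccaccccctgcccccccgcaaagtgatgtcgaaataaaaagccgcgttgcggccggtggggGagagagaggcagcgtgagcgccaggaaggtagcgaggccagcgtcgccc
GATA2, downstream start, chr3:128488481-128488780: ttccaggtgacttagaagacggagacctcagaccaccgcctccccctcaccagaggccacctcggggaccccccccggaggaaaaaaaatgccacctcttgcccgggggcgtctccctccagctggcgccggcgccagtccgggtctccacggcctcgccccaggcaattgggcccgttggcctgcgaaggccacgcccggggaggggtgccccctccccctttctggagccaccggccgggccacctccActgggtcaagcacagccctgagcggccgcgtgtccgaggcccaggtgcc
FOXA1, chr14:37595200-37595499: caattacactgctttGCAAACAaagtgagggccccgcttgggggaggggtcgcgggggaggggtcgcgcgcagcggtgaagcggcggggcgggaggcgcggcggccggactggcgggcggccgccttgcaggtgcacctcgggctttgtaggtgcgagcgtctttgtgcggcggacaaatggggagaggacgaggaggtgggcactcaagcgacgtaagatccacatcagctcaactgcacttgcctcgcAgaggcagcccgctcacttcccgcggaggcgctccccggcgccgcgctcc
The search covered 6 motifs on both strands, with overlapping matches allowed. They were the receptor half-site AGAACA, found in 14.8% of all 35116 RefSeq promoters of this length, the forkhead words TGTTTAC (3.42%) and TGTTTGC (3.89%), the GATA word AGATAA (10.3%), the grainyhead core AACNNGTT (3.52%) and the HOXB13 word CAATAAA (4%). The SPDEF window and both GATA2 windows held none of them. The FOXA1 window held 1 match, the reverse complement of TGTTTGC, which begins 235 bases before the start. GC content was 52% in the SPDEF window, 69.3% in that of FOXA1, and 72.3% and 71.3% in the upstream and downstream windows of GATA2. A match or its absence describes these windows, and nothing about binding was measured.

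Levels are given on the log2 scale after background correction and quantile normalization, so a difference of 1 is a doubling, and a probe's level is compared between groups and never with another probe's. A probe counted as detected on an array where its detection p-value, set against the negative control beads, was under 0.05, and it was tested when it was detected on at least 3 of the 12 arrays. This left 20413 probes. Adjusted p-values are those of 1 limma fit over these probes with Benjamini-Hochberg correction in each comparison, and a probe was called under 0.05. An array detected 16681 to 18868 probes, arrays of a group correlated with r of at least 0.9911, and no arrays were identical. The labels do not say whether the 3 arrays of a group came from separate cultures, so the p-values measure the spread between these samples, which may be technical. Of 12 luminal markers on the array, 9 were detected on all vehicle arrays, 12 on all R1881 arrays, 9 on all Torin 1 arrays and 11 on all arrays with both, and the summed signal of the list was 12800 to 15900 in vehicle, 14600 to 20100 with R1881, 15800 to 17900 with Torin 1 and 21100 to 22900 with both. None of 6 basal markers was detected on all arrays of any group, KRT5 and KRT14 included, and 7 of 8 neuroendocrine markers, among them CHGA and SYP, were not either. Of 10 stromal markers 3 were detected in each group (summed signal 2120 to 2290 in vehicle, 2090 to 2540 with R1881, 2500 to 2680 with Torin 1 and 2130 to 2140 with both), but not COL1A1 or DCN, and of 6 immune markers 2 were (1470 to 1710), but not PTPRC. The stromal genes ACTA2 (1.16, adjusted p = 4.21e-06), VIM (0.43, adjusted p = 0.00272) and TAGLN (0.41, adjusted p = 0.0239) rose with Torin 1 against vehicle. So did the immune marker HLA-DRA (0.38, adjusted p = 0.0335), the 1 called of 3 tested. Of the 12 luminal markers, R1881 against vehicle raised 7 and lowered 4 (91.7% called, beside 34.6% of all tested genes). Torin 1 against vehicle raised 4 and lowered 0 (33.3%, beside 28.5%). The part of these differences in the results below was not tested. In RNA from a whole culture, fewer cells that express a gene and less of its RNA per cell cannot be told apart.

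FOXA1 moved little with R1881 alone and was highest in cells given both drugs. Its log2 level was 11.99, 12.01 and 12.02 on the vehicle arrays and 11.84, 11.76 and 11.86 with R1881. It was 12.16, 12.23 and 12.23 with Torin 1, and 12.27, 12.39 and 12.42 with Torin 1 and R1881. No array of one group overlapped with any of another, and the groups ordered as both drugs, Torin 1, vehicle and R1881. Neighbours in this order did not pass the test: R1881 against vehicle was -0.19 (SE 0.0753, adjusted p = 0.0828), Torin 1 against vehicle 0.20 (adjusted p = 0.0703), and both drugs against Torin 1 0.16 (adjusted p = 0.129). The steps that spanned more than 1 place did: FOXA1 rose 1.46-fold when Torin 1 was added to R1881 (log2 0.54, adjusted p = 8.03e-05), and was 1.28-fold higher with both drugs than in vehicle (adjusted p = 0.00162). Each of the uncalled differences between neighbours passed under some other settings, with the same direction throughout. R1881 against vehicle passed under 5 of 24 and Torin 1 against vehicle under 8 of 24. Both drugs against Torin 1 passed under 3 of 24. The difference between both drugs and vehicle was not called under median scaling (0.22, adjusted p = 0.13) or without normalization between arrays (0.24, adjusted p = 0.23).

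GATA2 fell with R1881 whether or not mTOR was inhibited, and Torin 1 raised it in both settings. The log2 levels were 8.10, 8.15 and 8.19 in vehicle and 7.23, 7.04 and 6.81 with R1881. They were 8.51, 8.57 and 8.67 with Torin 1, and 7.42, 7.70 and 7.58 with both. The 4 groups were fully separate, from Torin 1 at the top through vehicle and both drugs to R1881, and each neighbour in this order differed. R1881 lowered GATA2 2.17-fold (log2 -1.12, SE 0.11, adjusted p = 3.54e-06), a change matched in size by 3.23% of tested probes. Under Torin 1 the fall was 2.02-fold (adjusted p = 6.22e-06). Torin 1 raised GATA2 1.35-fold without androgen (log2 0.44, adjusted p = 0.0104) and 1.45-fold with it (log2 0.54, adjusted p = 0.00157). The rise without androgen lost its call under median scaling (0.29, adjusted p = 0.0968) and without normalization between arrays (0.32, adjusted p = 0.158). Cells with both drugs remained 1.5-fold below vehicle (adjusted p = 0.000679).

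GRHL2 ran the other way and rose with R1881. Its log2 level was 6.39, 6.67 and 6.69 in vehicle and 7.56, 7.70 and 7.61 with R1881. With Torin 1 it was 7.03, 6.62 and 6.97, and with both drugs 8.23, 8.15 and 8.25. Both groups with R1881 lay above both without it, while the Torin 1 and vehicle arrays overlapped. The R1881 rise was 2.06-fold without the inhibitor (log2 1.04, SE 0.114, adjusted p = 1.07e-05) and 2.53-fold with it (log2 1.34, adjusted p = 6.14e-07). Adding Torin 1 to R1881 raised GRHL2 1.5-fold (log2 0.59, adjusted p = 0.00109), which put cells with both drugs 3.09-fold above vehicle (adjusted p = 5.73e-08). Torin 1 alone gave 0.29 (adjusted p = 0.0803), and 0.42 (adjusted p = 0.0158) when replicate 2 of the Torin 1 group was left out. The R1881 rise was smaller without background correction (0.65) and in the authors' processed values (0.63).

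HOXB13 fell with R1881, and no effect of Torin 1 on it passed the test. The log2 level was 8.41, 8.53 and 8.62 in vehicle and 8.24, 7.83 and 7.88 with R1881. It was 8.53, 8.65 and 8.86 with Torin 1, and 8.02, 7.75 and 7.69 with both. Every array with R1881 lay below every array without it, and within each of these pairs of groups the arrays overlapped. The fall was 1.45-fold without Torin 1 (log2 -0.54, SE 0.13, adjusted p = 0.00627) and 1.81-fold with it (log2 -0.85, adjusted p = 0.000146). Torin 1 gave a difference of 0.16 without androgen (95% interval -0.12 to 0.44, adjusted p = 0.438) and -0.16 with it (95% interval -0.44 to 0.12, adjusted p = 0.37). A rise of up to 0.44 without androgen and a fall of up to 0.44 with it were thus within the intervals.

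SPDEF had the largest R1881 changes of the 7 genes, without and with Torin 1. Its log2 level was 7.62, 7.65 and 7.57 in vehicle and 9.68, 9.49 and 9.55 with R1881. It was 7.94, 7.96 and 8.05 with Torin 1, and 10.47, 10.38 and 10.41 with both. The groups did not overlap, and each neighbour in the order of both drugs, R1881, Torin 1 and vehicle differed. R1881 raised SPDEF 3.88-fold (log2 1.96, SE 0.0789, adjusted p = 4.53e-10), and 0.911% of tested probes changed as much. Under Torin 1 the rise was 5.42-fold (log2 2.44, adjusted p = 3.14e-11). Torin 1 raised SPDEF 1.29-fold without androgen (log2 0.37, adjusted p = 0.00398) and 1.8-fold with it (log2 0.85, adjusted p = 2.28e-06). Its rise without androgen was not called under median scaling (0.25, adjusted p = 0.166) or without normalization between arrays (0.28, adjusted p = 0.254). With both drugs SPDEF stood 7-fold above vehicle (log2 2.81, adjusted p = 4.99e-12).

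TLE3, the corepressor, was near the detection limit in cells given R1881 alone. The log2 level was 5.40, 5.76 and 5.66 in vehicle and 4.65, 4.77 and 4.64 with R1881, where the probe was detected on 1 of 3 arrays (detection p of 0.0896, 0.039 and 0.112). It was 5.57, 5.61 and 6.06 with Torin 1, and 5.48, 5.42 and 5.23 with both, and it was detected on all 9 arrays of the other groups. The R1881 arrays lay below all others, while vehicle overlapped with Torin 1 and with both drugs. TLE3 fell 1.89-fold with R1881 (log2 -0.92, SE 0.133, adjusted p = 0.000143) and rose 1.62-fold when Torin 1 was added to R1881 (log2 0.69, adjusted p = 0.00105). With both drugs it was not called against vehicle (-0.23, 95% interval -0.51 to 0.06, adjusted p = 0.198). Against Torin 1 the difference was -0.37 (adjusted p = 0.0455), a call lost under 12 of 24 other settings. The mean with R1881, 4.69, was below 4.76, the mean over these arrays of the lowest level of a detected probe, so both folds that involve R1881 alone rest on signal near background and their size is uncertain. The fall was -0.29 without background correction and -0.37 in the authors' processed values, and the rise on adding Torin 1 was 0.21 and 0.26, all 4 called.

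NCOA2, the coactivator, was at the edge of detection everywhere. Its log2 level was 4.60, 4.77 and 4.83 in vehicle, detected on 2 of 3 arrays, and 4.68, 4.82 and 4.93 with Torin 1, also detected on 2 of 3. It was 4.40, 4.34 and 4.40 with R1881, and 4.34, 4.40 and 4.48 with both drugs, and on none of these 6 arrays was it detected (lowest detection p 0.271). The arrays with R1881 lay below those without it. NCOA2 passed the filter through 4 arrays without R1881, so a lower value with R1881 was built into its selection, and its calls are given as a description: R1881 against vehicle was -0.35 (adjusted p = 0.00892) and both drugs against Torin 1 was -0.40 (adjusted p = 0.00292). The lowest level of a detected probe averaged 4.76 on the R1881 arrays, above the vehicle mean of 4.73, so no fold can be stated for the first, and the second was at least 1.01-fold. The call against vehicle was lost with a larger offset (-0.15, adjusted p = 0.0549) and in the authors' processed values (-0.07, adjusted p = 0.142), in which that against Torin 1 was lost too (-0.08, adjusted p = 0.0838).

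**Figure D1:**
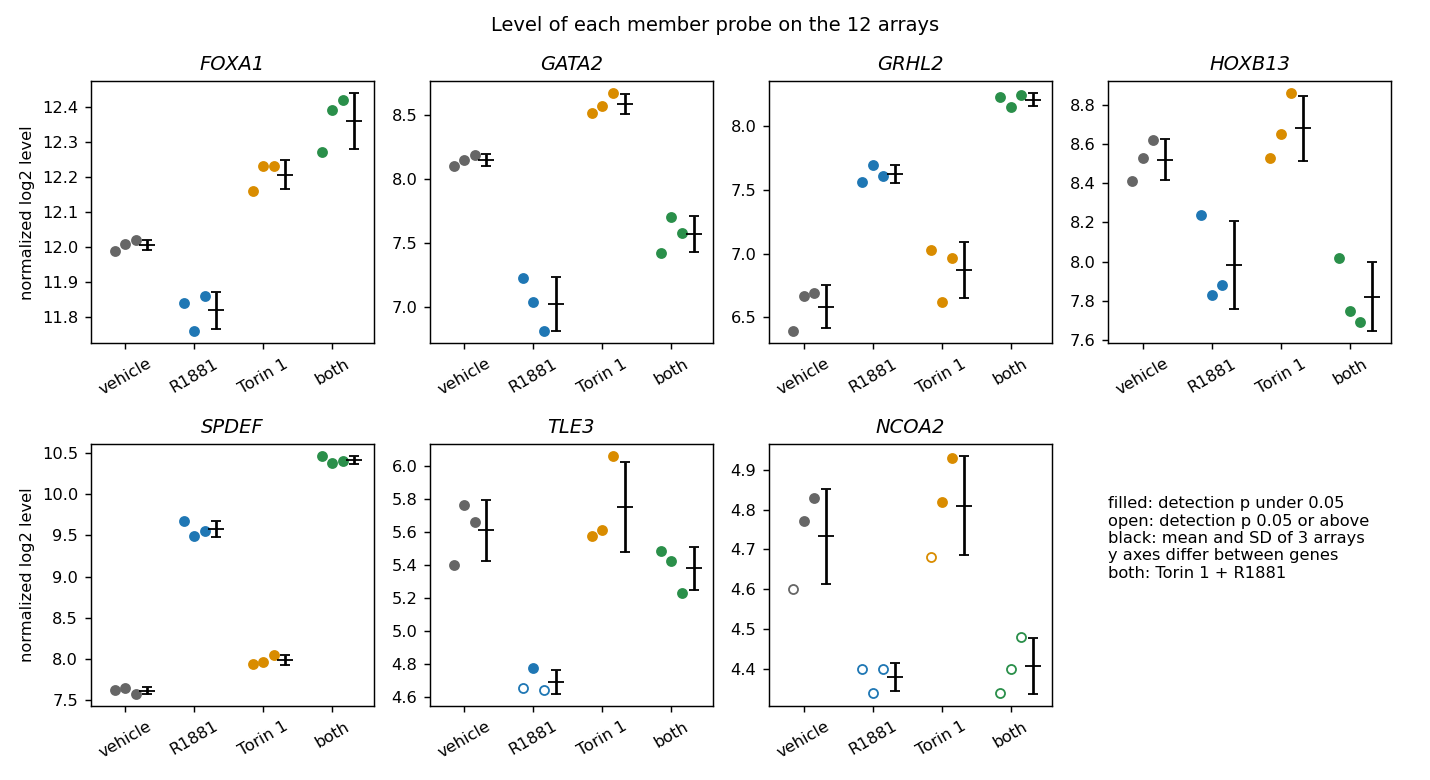
Normalized log2 level (y axis, a separate range for each gene) of the 7 member probes on the 12 arrays, by group (x axis); filled points were detected, open points were not, and the black mark gives the mean and SD of 3 arrays. SPDEF and GRHL2 stand high in both groups with R1881, GATA2, HOXB13 and NCOA2 stand low in them, and TLE3 is low with R1881 alone.

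The R1881 comparison called 6 of the 7 member probes, 2 higher (SPDEF and GRHL2) and 4 lower (GATA2, TLE3, HOXB13 and NCOA2), where 29.8% of all tested probes were called, 13.3% higher and 16.5% lower. The arrays of both groups did not overlap for 7 of 7 members, where 41.9% of all probes did not. Without NCOA2, whose direction the filter had fixed, 5 of 6 were called, 2 higher and 3 lower, and 6 of 6 did not overlap. The median size of the change, sign set aside, was 0.98 over these 6 members and 0.188 over all probes. The members, and the lists of other genes below, were chosen with earlier results of these data known. Their counts and sizes beside those of all probes are therefore a description, here and below. Under Torin 1, R1881 again called 6 of 7 (2 higher and 4 lower, the same genes in the same directions), where 36.7% of all probes were called, and 5 of 6 without NCOA2 (2 higher and 3 lower). Both R1881 comparisons use separate control arrays. FOXA1 was the uncalled gene in each, and its fitted value was -0.19 without Torin 1 and 0.16 with it. In R1881 cells against Torin 1 cells all 7 were called, 2 higher and 5 lower (46.1% of all probes; 6 of 6 without NCOA2), and in cells with both drugs against vehicle 6 of 7, 3 higher and 3 lower (43.1%; 5 of 6 without NCOA2).

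Torin 1 without androgen called 2 of 7, GATA2 and SPDEF, both higher, which is close to the background, in which 24.7% of all probes were called and 13.0% were called higher. All 7 fitted values were above 0, from 0.08 for NCOA2 to 0.44 for GATA2, with a median size of 0.20 beside 0.171 for all probes. With sign, the median over all probes was 0.0198. NCOA2 was at the edge of detection, and the TLE3 value of 0.14 became -0.02 without Torin 1 replicate 3. In the presence of R1881, Torin 1 called 5 of 7 members, all higher: SPDEF (0.85), TLE3 (0.69, and 0.21 without background correction), GRHL2 (0.59), FOXA1 (0.54) and GATA2 (0.54). Of all probes 38.1% were called there, 19.7% higher. The median size was 0.54 over the members and 0.228 over all probes. HOXB13 (-0.16) and NCOA2 (0.03) were not called.

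**Figure D2:**
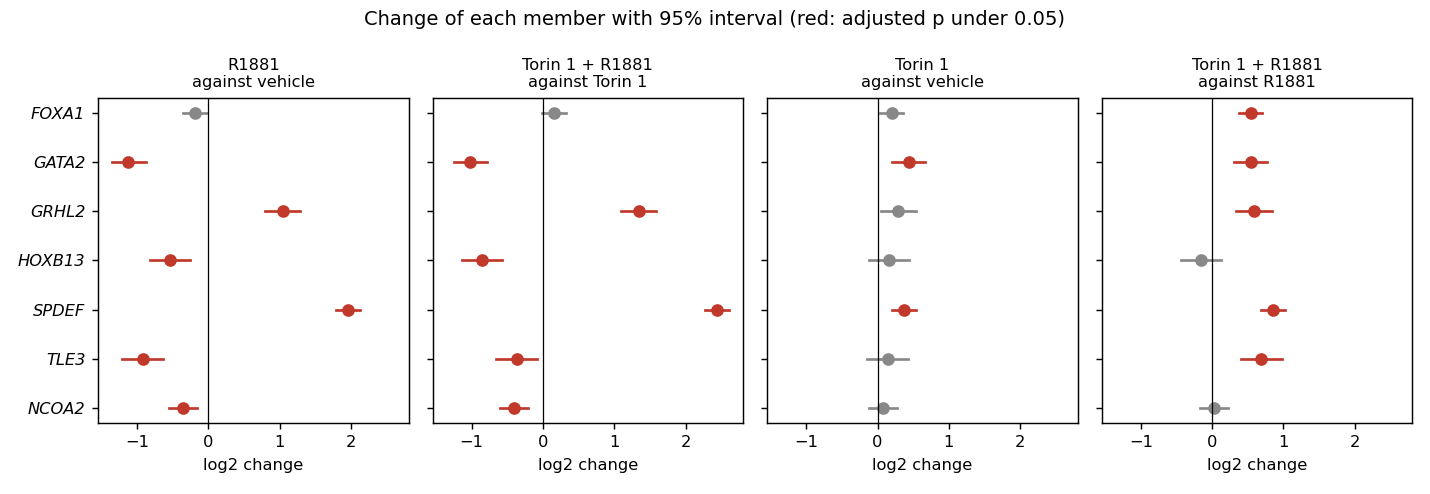
Log2 change (x axis) of each member (y axis) with its 95% interval in 4 comparisons, red where the adjusted p was under 0.05. The R1881 panels without and with Torin 1 show the same 2 rises and 4 falls, and Torin 1 raised 2 genes without R1881 and 5 with it. The NCOA2 fall was built into the selection of its probe, and the TLE3 call under Torin 1 was lost under 12 of 24 other settings.

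Whether Torin 1 changed the R1881 response was tested as the interaction, which is the R1881 change with Torin 1 less that without it. SPDEF was the 1 member called (0.48, 95% interval 0.24 to 0.72, SE 0.112, adjusted p = 0.015), where 10.2% of all probes were called and 5.50% called higher, so its R1881 rise was 1.4-fold larger under Torin 1. This call was lost under median scaling (0.51, adjusted p = 0.0942) and without normalization between arrays (0.53, adjusted p = 0.247), with the value itself little moved. TLE3 had a larger but less precise value, 0.55 (95% interval 0.14 to 0.96, adjusted p = 0.0863), which was 0.71 (adjusted p = 0.0174) without replicate 3 of the Torin 1 group, but 0.15 (adjusted p = 0.246) without background correction and 0.22 (adjusted p = 0.202) in the authors' processed values. FOXA1 had 0.34 (95% interval 0.11 to 0.57, adjusted p = 0.0603), and this passed the test under 7 of 23 other settings. For GRHL2 the interaction was 0.30 (95% interval -0.05 to 0.65, adjusted p = 0.292), for HOXB13 -0.32 (-0.71 to 0.08, adjusted p = 0.326) and for GATA2 0.10 (-0.23 to 0.44, adjusted p = 0.752). The NCOA2 value of -0.05 (adjusted p = 0.855) compares levels that were mostly undetected.

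**Figure D3:**
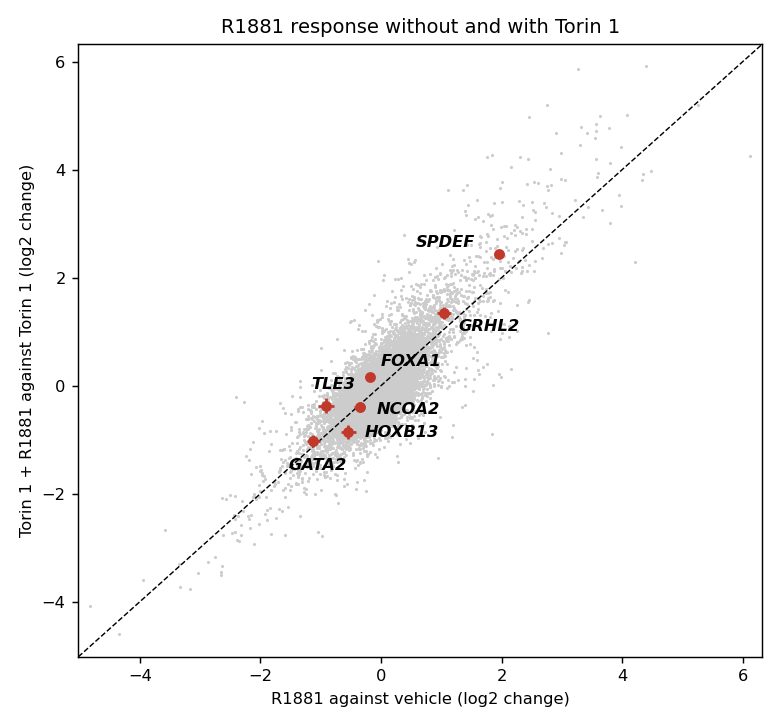
Log2 change with R1881 under Torin 1 (y axis) against that without Torin 1 (x axis), for the 7 members (red, with SE) and all 20413 tested probes (grey); the dashed line marks equal change. SPDEF lies above the line at 1.96 and 2.44, GATA2 close to it at -1.12 and -1.02, and TLE3 above it at -0.92 and -0.37.

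The members fell into unlike patterns over the 12 arrays. GRHL2 and SPDEF followed each other closely (r = 0.978), as did GATA2 with NCOA2 (0.894) and TLE3 (0.888), and HOXB13 with NCOA2 (0.899), whereas HOXB13 and SPDEF ran opposite (-0.876). These values describe 12 arrays that share 4 treatments. Those of NCOA2 also rest on a probe undetected on every array with R1881, where its lower level was built into its selection. After group means were removed, r was -0.102 for GRHL2 and SPDEF and 0.788 for HOXB13 and SPDEF, so the values above follow the group means and say little of variation within a group. The genes most like each member were found by Pearson r over the 12 arrays among 11517 genes. SPDEF was most like LRIG1, a transmembrane regulator of growth factor receptors (0.998), SELENOP, a secreted selenium carrier (0.997), and ABHD2, a lipid hydrolase (0.997). LRIG1 had a mean log2 level of 8.02 in vehicle, 9.87 with R1881, 8.29 with Torin 1 and 10.63 with both, the order seen for SPDEF. GRHL2 was most like XAB2, a splicing and repair factor (0.987), COPG1, a coat protein of Golgi vesicles (0.987), and C15orf61 (0.986). GATA2 was most like HADHB, of mitochondrial fatty acid oxidation (0.986), FGF13 (0.985) and PHLDA3, an inhibitor of AKT (0.971). FOXA1 was most like SLC16A9, a transporter (0.987), CREBRF (0.985) and MYO6, a myosin (0.981), and CREBRF stood at 6.27 in vehicle, 5.77 with R1881, 7.16 with Torin 1 and 7.58 with both. HOXB13 was most like EEIG2 (0.955), TCFL5 (0.953) and SPATS2 (0.953), though another kept probe of SPATS2 gave 0.56. TLE3 was most like LDOC1 (0.964), MVB12B (0.964) and GPAM, the first enzyme of glycerolipid synthesis (0.959). NCOA2 was most like PGM5 (0.97), TSC1, which restrains mTOR (0.968, with other TSC1 probes at 0.861 and 0.105), and XYLT2 (0.96). The NCOA2 probe was at the edge of detection everywhere, so its likenesses rest on signal near background. PGM5 was about as low, with means of 4.71 in vehicle, 4.32 with R1881, 4.82 with Torin 1 and 4.38 with both.

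Other genes of the same kinds were described as 4 lists, each gene by its brightest kept probe. Of 11517 genes, 34.6% were called with R1881 and 28.5% with Torin 1. Among 18 tested coactivators of the receptor, R1881 raised 1 and lowered 4 (27.8%, median log2 -0.14). The rise was PIAS1, a SUMO ligase (1.07, adjusted p = 5.9e-06), and the deepest falls were NCOA7 (-1.95, adjusted p = 1e-08) and NCOA1, a steroid receptor coactivator of the NCOA2 family (-0.62, with another probe at -0.03). Torin 1 raised 2 coactivators, the acetyltransferases KAT5 (0.33) and CREBBP (0.29), and lowered 3, the deepest being NCOA7 (-0.45) and SMARCA4, a chromatin remodeller (-0.33). Other probes of KAT5 (-0.02 and -0.31) and of CREBBP (-0.21) did not share the rise, and these calls were lost under 10 and 9 of 24 other settings. The SMARCA4 call was lost under 2 of 24 other settings. The number of coactivators called over those settings was 4 to 9 with R1881 and 1 to 6 with Torin 1. When Torin 1 was added to R1881, 7 coactivators rose and 5 fell (66.7%, beside 43.1% of all genes), with 5 to 14 called over the other settings and 5 without normalization between arrays.

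Among 17 tested corepressors, R1881 raised 1 and lowered 6 (41.2%, median -0.17). TBL1X, a subunit of the NCOR complex, rose (0.46, adjusted p = 0.0016), and CTBP1 (-1.74, adjusted p = 1.18e-07, with other probes at -0.83 and -0.88) and NRIP1 (-0.32) fell the furthest. Torin 1 raised TLE1, of the same family as TLE3 (0.74, adjusted p = 0.000189), and TBL1XR1 (0.35), and it lowered EZH2, the methyltransferase of the Polycomb complex (-0.70, with other probes at -1.14 and -1.15), and CCND1, a cyclin that also binds the receptor (-0.38). The TBL1XR1 call was lost under 6 of 24 other settings, and the TBL1X call with R1881 under 2. TLE1 was not called with R1881 alone (-0.08, adjusted p = 0.647), with a mean log2 level of 6.70 in vehicle and 6.62 with R1881, and it rose when Torin 1 was added to R1881 (1.12, adjusted p = 2.34e-06). Over the other settings 4 to 8 corepressors were called with R1881 and 3 to 6 with Torin 1.

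Among 25 other pioneer and lineage factors tested, R1881 raised 6 and lowered 6 (48%, median 0.09). ZBTB16, a zinc finger repressor (2.08, adjusted p = 9.44e-10, other probes 1.99 and 0.39), and ELK4, an ETS protein (1.75, other probes 0.22 to 1.28), rose the most. MYB (-1.78, adjusted p = 1.68e-09) and the ETS factor ELF3 (-0.69) fell the most. These sizes depended on the processing, though all stayed called. Without background correction they were 1.29 for ZBTB16, 0.73 for ELK4, -0.83 for MYB and -0.36 for ELF3. In the authors' processed values they were 1.31, 0.89, -0.96 and -0.33. Torin 1 raised 6 and lowered 4 (40%). ZBTB16 rose (0.94, with other probes at 0.64 and 0.03), as did the ETS factor EHF (0.43), while MYB fell (-0.75). The EHF call was lost under median scaling (0.26, adjusted p = 0.155) and without normalization between arrays (0.29, adjusted p = 0.24). FOXM1, a forkhead protein of dividing cells, went from detected to undetected on all Torin 1 arrays. With the background correction used here it was at least 3.24-fold lower (adjusted p = 5.48e-09), with its other probe at -1.14. The FOXM1 change was smaller without background correction (-0.76) and in the authors' processed values (-0.82), both called. In the interaction 6 of the 25 were called higher and 1 lower, 28% beside 12.1% of all genes, and 4 to 8 were called under the other settings. The highest of these, named after the values were seen, was SOX9, a progenitor cell factor (1.47, adjusted p = 4.07e-05), and the lower one was EHF (-0.46, adjusted p = 0.033). ZBTB16 resembled SPDEF in its group means, 6.05 in vehicle, 8.13 with R1881, 6.99 with Torin 1 and 9.55 with both.

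Among 11 chaperones that hold the receptor ready for its ligand, R1881 raised 2 and lowered 2 (36.4%, median 0.00). FKBP5, a well-known androgen target, rose 15.8-fold (log2 3.98, adjusted p = 4.3e-12) and serves as a check that the R1881 arrays carry an androgen response. CDC37 (0.24), HSP90AB1 (-0.38) and HSP90AA1 (-0.33) made up the rest, and these calls were lost under 13, 5 and 8 of 24 other settings. Torin 1 lowered 3, among them DNAJA1 (-0.34) and STIP1 (-0.33), and raised none (27.3%, median -0.16), and the calls of these 2 genes were lost under 4 and 5 of 24 other settings. Over the other settings 1 to 4 chaperones were called with R1881 and 0 to 5 with Torin 1.

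**Figure D4:**
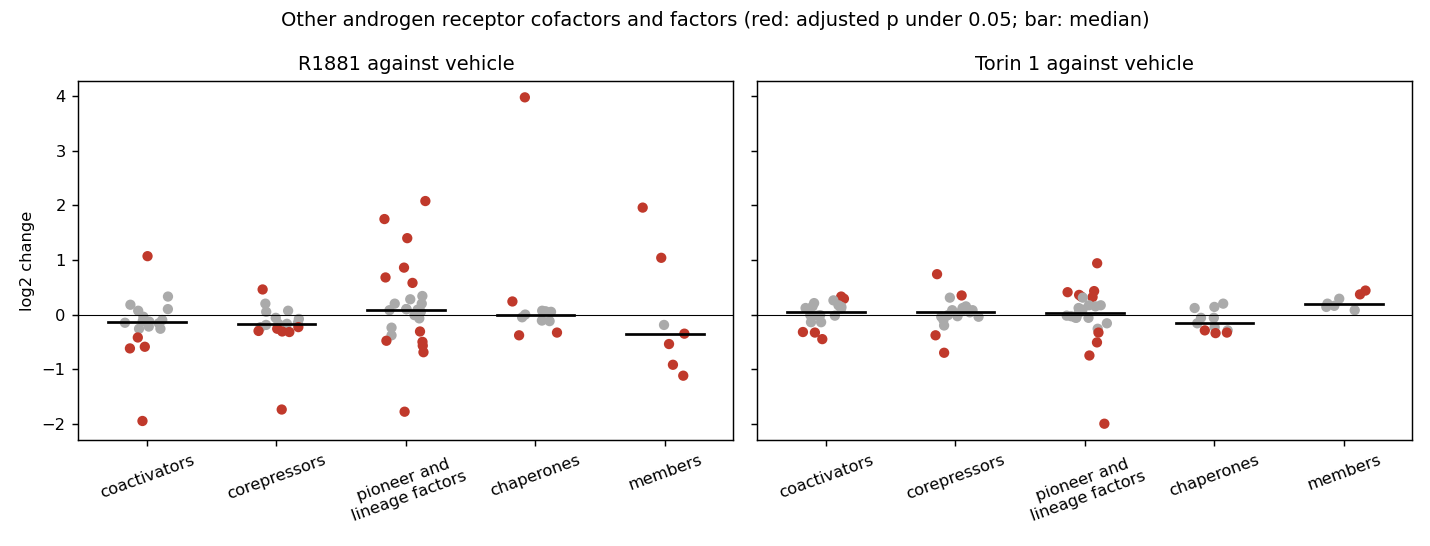
Log2 change (y axis) of each tested gene of the 4 lists and of the 7 members (x axis) with R1881 (left) and with Torin 1 (right), red where the adjusted p was under 0.05, with a bar at the median. The lists of coactivators and corepressors have medians of -0.14 and -0.17 with R1881, and the members spread from -1.12 to 1.96 with R1881 but from 0.08 to 0.44 with Torin 1.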

How the data were processed

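Biotin-labelled RNA of LNCaP cells was hybridized to bead arrays, per the labels. The deposited table holds a raw signal intensity for each probe on each array. A detection p-value stands beside each intensity, per the file headers. The authors also deposited processed log2 values (array medians 6.187 to 6.217), made by a normalization that the labels and headers do not name. All 12 processed columns matched best the raw array of the same name (r of at least 0.9978). Probes were named from the platform annotation, which gives 1 symbol to 30113 probes, several to 8 and none to 17202.

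The intensities went through neqc of limma 3.58.1 in R 4.3.3, which infers the background from the detection p-values, applies normexp with an offset of 16, makes the quantiles of the arrays equal and takes log2. Median raw signal was 93.8 to 107 per array, and the number of arrays limits the precision. 1 fit with 4 group means on 12 arrays (8 residual degrees of freedom, eBayes) gave every comparison. Exact permutation of 3 against 3 arrays cannot give a two-sided p under 0.1 and was not used. A probe detected on no array of a group was given a bound, with the lowest level of a detected probe on each array as the floor. After group means were removed, arrays with the same replicate number correlated with a mean r of -0.00839 (range -0.11 to 0.146). No pairing by number was seen, though with 3 arrays per group this check cannot exclude one.

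The members and lists were chosen with earlier results of these data known. The text names every member probe, the 3 genes most like each member, and up to 2 called rises and 2 called falls per list with R1881 and with Torin 1, where a gene is represented by its brightest kept probe with 1 symbol. TLE1, ZBTB16, SOX9, HLA-DRA and 3 stromal genes are described beyond that rule, chosen after their values were seen. Alternatives were median scaling, cyclic loess, no normalization, no background correction, an offset of 50, the authors' processed values, no filter, a detection p of 0.01, 1 probe per gene, array weights, a replicate block, only the groups compared, and leaving out each array.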

Additional observations from a re-analysis of the deposited data

Results flagged for a closer look

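SPDEF was the 1 member whose R1881 response differed with and without Torin 1 in the test of that difference. Its R1881 change was 1.96 on the log2 scale without Torin 1 and 2.44 with it, a difference of 0.48 (limma, adjusted p = 0.015, n = 3 per group). All 3 arrays with both drugs lay above all 3 with R1881 alone, and all 3 with Torin 1 lay above all 3 vehicle arrays. That separation describes the change with Torin 1 and not the difference in response. The call of the difference was lost under median scaling and without normalization between arrays, at 0.51 and 0.53.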

How the results depend on the processing

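Of 1162 comparisons of a member's value with one of its alternatives, 1103 kept direction and side of the threshold, 27 gained a call, 26 lost one and 6 changed sign, all 6 in values that were not called. These were TLE3 with Torin 1 against vehicle (-0.02 without Torin 1 replicate 3, up to 0.23 without another array), NCOA2 with both drugs against R1881 (-0.01 without Torin 1 + R1881 replicate 3, up to 0.06), the GATA2 interaction (-0.01 in the authors' processed values and without R1881 replicate 3, up to 0.20) and the NCOA2 interaction (0.01 without vehicle replicate 1 and without Torin 1 replicate 3, down to -0.12).

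Under median scaling and without normalization between arrays the members called with Torin 1 against vehicle went from 2 to 0, and those called in the interaction from 1 to 0. The interaction count was 2 without background correction, with an offset of 50, in the authors' processed values, with no filter, with the strict filter and with 1 probe per gene, and 1 to 2 when single arrays were left out (2 without Torin 1 replicate 3 or Torin 1 + R1881 replicate 1). Over all probes, the interaction called 2074, but 1021 under median scaling and 603 without normalization. Without normalization Torin 1 against vehicle called 2501 rather than 5035, and both drugs against R1881 called 4946 rather than 7769. With 1 probe per gene, 11517 genes were tested rather than 20413 probes, so the counts there are out of a smaller total. Both drugs against vehicle then called 5851 rather than 8799, and R1881 against Torin 1 called 6183 rather than 9407. Median scaling moved the median of all probes with R1881 from -0.014 to -0.144. The share of called probes that were higher moved with it from 44.7% to 20.3% with R1881 (17.3% without normalization), from 52.6% to 30.9% with Torin 1 (35.8%), from 43.5% to 27.8% with R1881 under Torin 1 (26.4%), and from 54.1% to 69% in the interaction (72.8%). The cause was not tested. With a replicate block, 6 members were called with R1881, 2 with Torin 1 and 1 in the interaction (5814, 4740 and 1732 of all probes), and the one member call lost was TLE3 with both drugs against Torin 1. An array was closest to one of its own number in 3 of 12 cases. Settings for the 4 lists were added after the data were seen, and the number of pioneer and lineage factors called was 11 to 14 with R1881 (12 as reported) and 4 to 10 with Torin 1 (10 as reported). Calls of TLE3 and NCOA2 rest on signal near background.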
